A study of Mus musculus with 105 samples.

Results

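The naive pluripotency transcription factors described here were 10 genes, Nanog, Esrrb, Klf2, Klf4, Klf5, Tfcp2l1, Tbx3, Nr5a2, Prdm14 and Nr0b1, chosen by name and read from 2 bulk RNA count tables of 52016 genes each and from a single-cell table of 34120 genes. All 10 were present in every table, and all 10 passed the filter on low counts in both bulk tables. The study followed female mouse embryonic stem cells (mESCs) as they left the naive state and inactivated an X chromosome. TX1072 is a C57BL6/J x Cast/EiJ (B6 x Cast) hybrid line, used as clone A3. Its genotype includes the rtTA transactivator at Rosa26 and, on the B6 X only, an Xist promoter inducible by doxycycline. The other lines, TXdXicB6 and TXdXicCast (dXicB6 and dXicCast from here on), are each a single clone derived from TX1072 that lacks the region around Xist on the B6 or the Cast X chromosome, so a difference between them cannot be told apart from a difference between clones.

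All lines were kept in serum with LIF and the 2i inhibitors, PD0325901 against MEK and CT-99021 against Gsk3 (day 0), and were differentiated for 1, 2, 3 or 4 days by withdrawing LIF and 2i on fibronectin in medium with 10% serum. No doxycycline treatment is named in the labels of these libraries. Bulk RNA was sequenced in 3 replicates per line and day, 45 libraries in all. The TX1072 libraries held 19827011 to 39628784 counts, the dXicB6 libraries 20246434 to 49962859 and the dXicCast libraries 16906263 to 57920260. TX1072 was prepared with a different kit and sequenced on another instrument than the deletion lines, so levels are not compared between TX1072 and the deletion lines. The dXicCast RNA of day 0 was degraded and was fragmented more mildly, and each contrast from day 0 in dXicCast rests on these libraries. Single cells were profiled by 3′ counting of unique molecular identifiers (UMIs) in a single TX1072 culture per day, with 277, 325, 341, 257 and 272 retained cells on days 0 to 4.

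Naive pluripotency is the state of the preimplantation epiblast, and in culture it is held by a small network of transcription factors. LIF acts through Stat3, inhibition of Gsk3 relieves repression by Tcf7l1, and both inputs converge on factors that activate one another and themselves. When the inputs are withdrawn, the network is dismantled, formative genes such as Fgf5, Otx2 and Dnmt3b rise, and the cells become competent to form germ layers. Pou5f1 and Sox2, the core factors, span the naive and later pluripotent states, whereas the factors described here are best known from the naive one. Nanog is the exception, since it is also known from the posterior epiblast at the onset of gastrulation.

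The promoters of the members were read from RefSeq (build GRCm38.p6) as windows from 250 bases before to 50 bases after each annotated start. Entries were found for 7 of the 10 members, in 10 windows, and Klf5, Tbx3 and Prdm14 are named only. Both strands were searched for 5 strings of letters known from factors of the network: GGGNGTGG for the Klf factors, TCAAGGTCA for Esrrb, TTCCNGGAA for Stat3, ATTTGCAT for Pou5f1 and CATTGTT for Sox2. The Klf letters were found in 3 of the 7 members, and in 17.6% of all 32851 promoter windows. They lay in 4 of the 10 windows, but the 2 Nanog windows overlap and hold the same 2 matches, so only the first is shown. The other strings were in 0 of the 7 members, and in 0.423%, 1.15%, 1.74% and 3.78% of all windows in the order given. The windows with the Klf letters are shown because Nanog and Tfcp2l1 had the highest levels per length of the members and Nr5a2 the lowest, with each match in capitals, and both matches in Tfcp2l1 read on the opposite strand as CCACGCCC.
Nanog, chr6:122707239-122707538 (+): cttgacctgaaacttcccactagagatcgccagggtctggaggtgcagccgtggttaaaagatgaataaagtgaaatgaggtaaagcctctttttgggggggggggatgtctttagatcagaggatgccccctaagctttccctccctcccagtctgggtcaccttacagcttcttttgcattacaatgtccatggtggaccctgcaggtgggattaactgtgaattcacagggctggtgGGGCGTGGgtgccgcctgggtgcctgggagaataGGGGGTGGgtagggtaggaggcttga
Tfcp2l1, chr1:118627695-118627994 (+): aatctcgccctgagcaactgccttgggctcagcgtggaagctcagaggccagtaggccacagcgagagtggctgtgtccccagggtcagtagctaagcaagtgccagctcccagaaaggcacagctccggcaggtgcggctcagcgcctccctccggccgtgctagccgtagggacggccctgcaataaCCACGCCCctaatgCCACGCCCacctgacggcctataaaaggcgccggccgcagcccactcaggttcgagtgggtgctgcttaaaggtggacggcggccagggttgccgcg
Nr5a2, chr1:136953581-136953880 (-): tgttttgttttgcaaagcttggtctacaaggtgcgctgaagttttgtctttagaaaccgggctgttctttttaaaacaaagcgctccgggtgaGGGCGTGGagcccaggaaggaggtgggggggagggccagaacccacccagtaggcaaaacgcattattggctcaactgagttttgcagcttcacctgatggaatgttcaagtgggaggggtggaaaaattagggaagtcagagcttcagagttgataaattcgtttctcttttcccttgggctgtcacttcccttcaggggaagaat
The matches began 10 bases before and 25 bases after the Nanog start shown (86 and 52 bases before its other start), 61 and 47 bases before the Tfcp2l1 start and 157 bases before the Nr5a2 start shown. The window of the other Nr5a2 start (chr1:136960399-136960698) held no match. A match of letters is a description of the window and not a binding site. Only exact letters were searched and near matches were not counted, so a string without a match does not show that a site is absent.

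At day 0 the members differed widely in level. Per kilobase of exon, Nanog (chr6:122707489-122714633) was the most abundant member in TX1072, at 481.4 ± 75.8 CPM per kilobase (SD, n = 3; CPM is the count scaled to library depth), or 41.2% of the sum over the 10 members. Tfcp2l1 (chr1:118627945-118685168), a Stat3 target that can itself maintain self-renewal, followed with 239.7 ± 12.1, and Esrrb (chr12:86361117-86521628), an orphan nuclear receptor and a target of Gsk3 inhibition, with 100.6 ± 6.73. Klf2, Klf4, Prdm14 and Nr0b1 lay between 61.0 and 77.6 on the same scale, and Tbx3, Klf5 and Nr5a2 between 18.7 and 28.2. All 10 members were also expressed at day 0 in both deletion lines.

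By day 4 each member had fallen in each line. In TX1072 10 of 10 members were lower than at day 0 by edgeR's quasi-likelihood test with Benjamini-Hochberg adjustment at 0.05, against 29.4% of all 18871 genes tested, and the same held for 10 of 10 in dXicB6 (29.5% of 19885 genes) and in dXicCast (33.6%). The median log2 change of the members from day 0 in TX1072 was -2.18 on day 1, -4.11 on day 2, -3.93 on day 3 and -4.37 on day 4, beside medians of -0.0122, -0.000242, -0.0193 and -0.034 over all genes tested. All 10 members were also called lower in TX1072 on day 2 (27.2% of all genes) and on day 3 (27.9%). In dXicB6 Nr0b1 was not called on day 2 (log2 change -0.73, adjusted p = 0.0881 by edgeR). The members did not fall to the same depth. Relative to day 0, the mean TX1072 level at day 4 was 20.9% for Nanog, 19.4% for Klf5, 10.5% for Klf2, 8.89% for Esrrb and 6.03% for Tbx3, while Nr5a2, Tfcp2l1, Nr0b1, Prdm14 and Klf4 were at 1.97 to 3.92%.

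**Figure D1:**
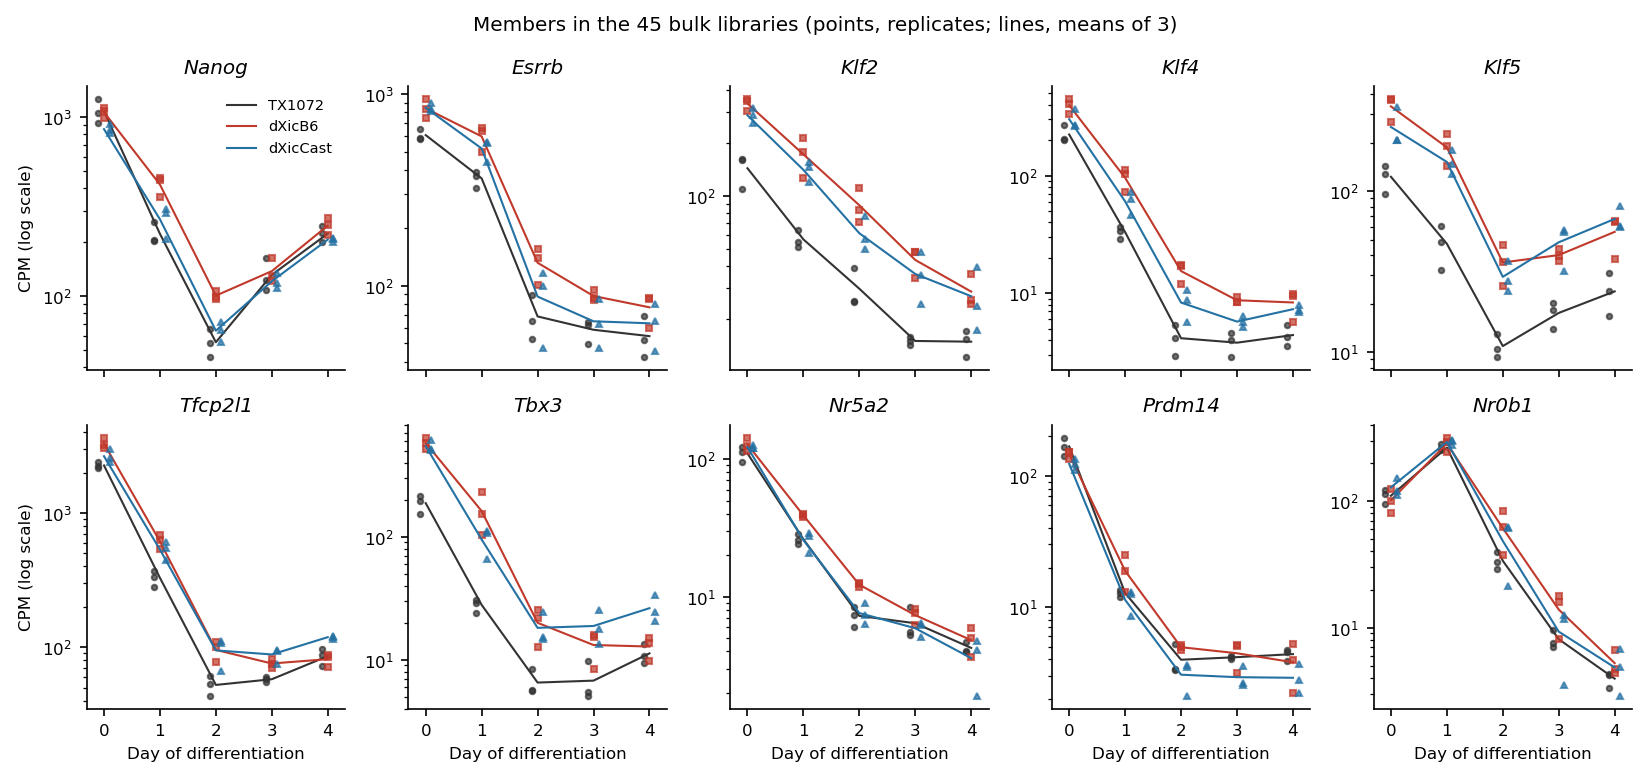
Level of each of the 10 members in CPM (log axis) against the day after 2i and LIF withdrawal, with a point per bulk replicate and a line through the mean of 3 replicates for TX1072, dXicB6 and dXicCast. Nr0b1 peaks at day 1, Nanog is lowest at day 2 in all lines, and the other members are far below their day 0 level at day 4.

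The fall began within the first day for all members except Nr0b1. On day 1, 9 members were lower in TX1072 (23.4% of all genes were lower) and 1 was higher (23.5% of all genes were higher). In dXicB6 8 members were lower (21.8% of all genes) and 1 higher (23.9%), and in dXicCast 9 were lower (28.3%) and 1 higher (30.6%). The member not called in dXicB6 was Esrrb, with a log2 change of -0.49 ± 0.24 (SE, adjusted p = 0.0971 by edgeR), which was 0.0132 with the replicate number as a block and 0.036 without replicate 3. From day 1 to day 2 all 10 members fell in each line, Nr0b1 for the first time, against 18.9% of all genes in TX1072, 16.8% in dXicB6 and 18.3% in dXicCast. In dXicCast the day 1 call of Esrrb (-0.70) was lost without replicate 2 (adjusted p = 0.0575 by edgeR) and that of Klf5 (-0.72) without replicate 1 (adjusted p = 0.0863). Without replicate 2, Klf2 was no longer called in dXicB6 for this step (adjusted p = 0.0546 by edgeR).

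Prdm14 (chr1:13113457-13127163), a PR-domain protein known for repressing Fgf receptor signalling and DNA methyltransferases in naive cells, was lost earliest. Its TX1072 level was 166.7, 195.9 and 141.0 CPM at day 0 and 12.7, 13.6 and 12 CPM at day 1. The groups were far apart, with a log2 change of -3.71 ± 0.16 (SE, adjusted p = 6.07e-12 by edgeR). At day 4 Prdm14 stood at 3.86, 4.73 and 4.53 CPM, within its day 2 range of 3.30 to 5.25 CPM, so nearly all of the loss was complete by day 2.

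Tfcp2l1, Tbx3 and Klf4 followed within the same day. Tfcp2l1 fell in TX1072 from 2167, 2389 and 2231 CPM to 281.7, 336.0 and 368.7 CPM at day 1, a log2 change of -2.78 ± 0.14 (adjusted p = 4.27e-11 by edgeR). Tbx3 (chr5:119670669-119684724), a T-box repressor downstream of PI3 kinase signalling, changed by -2.75 ± 0.22 log2 units, from 151.8, 195.8 and 213.0 CPM to 24.1, 28.9 and 30.6 CPM. Klf4 (chr4:55527143-55532466), a zinc-finger factor induced by Stat3 and one of the original reprogramming factors, changed by -2.76 ± 0.20. Klf4 was also the member with the lowest remainder in TX1072, with 203.6, 198.9 and 266.5 CPM at day 0 and 4.27, 3.56 and 5.40 CPM at day 4. No replicate of these genes at day 1 overlapped its day 0 group.

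Nanog and Nr5a2 (chr1:136842571-136960448), a nuclear receptor that can replace Pou5f1 in reprogramming, were intermediate, with log2 changes of -2.28 ± 0.17 and -2.07 ± 0.16 at day 1 in TX1072. The Klf genes did not move as a block. Klf2 (chr8:72319033-72321656), which depends on the MEK inhibitor in culture, and Klf5 (chr14:99298691-99315036), a Stat3 target that is also known from trophectoderm, changed by -1.34 ± 0.18 and -1.38 ± 0.23 in the same libraries in which Klf4 changed by -2.76. Esrrb kept most of its level for a day, with 583.5, 655.5 and 586.6 CPM at day 0 and 321.1, 392.9 and 372.2 CPM at day 1 (log2 change -0.75 ± 0.18, adjusted p = 0.00228 by edgeR). It then dropped to 89.5, 52.5 and 65.2 CPM at day 2.

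Nr0b1 (chrX:86191764-86195947), also called Dax1, an orphan nuclear receptor that binds Pou5f1, Esrrb and Nr5a2, was the only member higher at day 1 than at day 0. Its TX1072 level was 94.5, 114.2 and 122.3 CPM at day 0 and 261.5, 280.4 and 252.4 CPM at day 1. The groups did not overlap, and the log2 change was 1.26 ± 0.14 (SE, adjusted p = 5.83e-07 by edgeR). In dXicB6 the levels were 124.8, 100.0 and 79.9 CPM at day 0 and 293.2, 317.7 and 245.2 CPM at day 1 (1.49 ± 0.37, adjusted p = 0.00137), and in dXicCast 152.9, 112.0 and 120.9 CPM and 296.6, 305.7 and 278.3 CPM (1.19 ± 0.36, adjusted p = 0.00614). The rise was thus seen in 9 of 9 replicate series, although without replicate 2 it was not called in dXicCast (adjusted p = 0.0922 by edgeR). Afterwards Nr0b1 fell on each day, to 39.4, 29.0 and 32.9 CPM at day 2 and 3.35, 4.23 and 4.29 CPM at day 4 in TX1072, where it was one of the most completely lost members.

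The order of loss was described by a half-loss day, the interpolated day at which log2(CPM + 0.5) had fallen by 1 from day 0 in each replicate. In TX1072 the means were 0.274 for Prdm14, 0.36 for Tfcp2l1, 0.368 for Tbx3, 0.369 for Klf4, 0.44 for Nanog, 0.496 for Nr5a2, 0.737 for Klf5, 0.776 for Klf2, 1.1 for Esrrb and 1.77 for Nr0b1. Between neighbours in this order, the 3 replicates did not overlap for Prdm14 and Tfcp2l1, Klf4 and Nanog, Nr5a2 and Klf5, Klf2 and Esrrb, and Esrrb and Nr0b1. Tfcp2l1, Tbx3 and Klf4 could not be placed in order beyond their spread, nor could Nanog and Nr5a2, or Klf5 and Klf2. The place of Klf2 depends on the level chosen. When the day of reaching 25% of day 0 was used, Klf2 came after Esrrb on the mean day in TX1072 (1.78 and 1.53), dXicB6 (2.05 and 1.69) and dXicCast (1.82 and 1.5), and in TX1072 its replicates, at 2.41, 1.52 and 1.4, overlapped those of Esrrb and Nr0b1. The half-loss days below 1 rest on interpolation between libraries taken a day apart and are a way to rank the genes, not measured times.

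The deletion lines gave the same outer order. By mean, Prdm14 came first and Nr0b1 last in each line, with half-loss days of 0.343 and 2.1 in dXicB6 and 0.297 and 1.85 in dXicCast. Klf2, Klf5 and Esrrb filled the places before Nr0b1 in all 3 lines. In dXicB6 the replicates of neighbours did not overlap only for Tfcp2l1 and Klf4, Klf5 and Esrrb, and Esrrb and Nr0b1, so Prdm14 and Tfcp2l1 overlapped there. Within a replicate series Prdm14 still came before Tfcp2l1 in 3 of 3, as did Nr5a2 before Nanog and Nanog before Klf2. In dXicCast the replicates of neighbours did not overlap for Prdm14 and Tbx3, Nr5a2 and Nanog, Nanog and Klf2, and Klf5 and Nr0b1. Klf2 and Esrrb overlapped in dXicCast, with Klf2 first in 3 of 3 series. The middle of the order differed between lines. Nanog had a half-loss day of 0.44 in TX1072, 0.759 in dXicB6 and 0.599 in dXicCast, and Tbx3 had 0.368, 0.544 and 0.399. The mean half-loss day was later than in TX1072 for 10 of 10 members in dXicB6 and 9 of 10 in dXicCast, but the tables differ in library kit and read length and this was not tested.

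**Figure D2:**
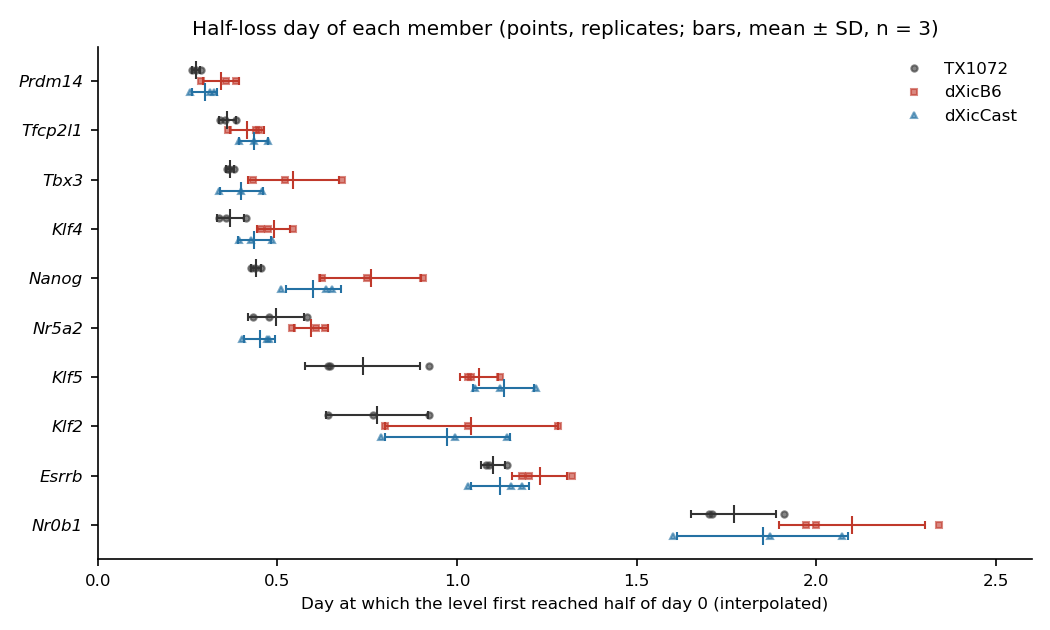
Half-loss day of each member (x axis, days after 2i and LIF withdrawal, interpolated on the log2(CPM + 0.5) scale) with a point per replicate and the mean ± SD (n = 3), for TX1072, dXicB6 and dXicCast. Prdm14 is earliest and Nr0b1 latest in each line, and Klf2, Klf5 and Esrrb come after the other members that fell from day 0.

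After day 2 the calls of the members went in both directions. Comparing day 4 with day 2 in TX1072, 4 members were higher (26.3% of all genes were higher), 3 were lower (23.5%) and 3 were not called. In dXicB6 2 were higher (23.9%) and 5 lower (22.9%), and in dXicCast 2 were higher (25.4%) and 3 lower (24.5%). Except for the members higher in TX1072 and those lower in dXicB6 these counts lie near the shares of all genes, so what follows is about single members and not about the members as a group. Nanog and Klf5 were the members called higher in all 3 lines, and Klf2, Nr5a2 and Nr0b1 were called lower in all 3.

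Nanog fell to a low at day 2 and then rose. Its TX1072 level was 1050, 926 and 1262 CPM at day 0, 206.3, 201.6 and 258.9 CPM at day 1, 65.6, 45.3 and 54.3 CPM at day 2, 163.0, 122.2 and 107.7 CPM at day 3 and 199.3, 225.0 and 244.3 CPM at day 4. Day 2 was the lowest day in all 3 replicates, and the day 2 and day 4 groups were far apart (log2 change 2.02 ± 0.17, adjusted p = 2.94e-08 by edgeR). The day 4 values overlapped those of day 1. In dXicB6 Nanog went from 95.5, 106.3 and 99.1 CPM at day 2 to 248.6, 219.2 and 273.0 CPM at day 4 (1.30 ± 0.13, adjusted p = 8.49e-09), and in dXicCast from 64.5, 71.6 and 55.6 CPM to 206.9, 200.2 and 211.7 CPM (1.69 ± 0.13, adjusted p = 7.87e-11). Day 2 was therefore the lowest day in 9 of 9 replicate series. Nanog made up 72.1% of the members' summed level per kilobase at day 4 in TX1072, 65.7% in dXicB6 and 60.0% in dXicCast.

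Klf5 was lowest at day 2 in 8 of 9 replicate series, the exception being dXicB6 replicate 2, which was lowest at day 3 with 39.8 CPM. In TX1072 it fell from 95.5, 128.5 and 143.9 CPM at day 0 to 12.9, 9.25 and 10.5 CPM at day 2 and stood at 16.6, 30.9 and 23.9 CPM at day 4 (day 4 against day 2, 1.13 ± 0.24, adjusted p = 0.000728 by edgeR). In dXicCast the levels at day 2 were 36.6, 27.4 and 23.9 CPM and at day 4 80.6, 61.0 and 59.7 CPM (1.19 ± 0.25, adjusted p = 0.000252). The groups did not overlap in these lines. In dXicB6 the groups of 36.0, 46.4 and 25.6 CPM and of 64.4, 65.1 and 37.8 CPM overlapped, and the change of 0.63 log2 units (adjusted p = 0.0374) was not called without replicate 1 (adjusted p = 0.18) or without replicate 2 (adjusted p = 0.0627).

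Tfcp2l1 and Tbx3 were called higher after day 2 in TX1072 and in neither deletion line, and TX1072 was not tested against the deletion lines. Tfcp2l1 rose in TX1072 from 53.2, 43.2 and 60.6 CPM to 72.7, 97.2 and 87.2 CPM (0.71 ± 0.14, adjusted p = 0.000277 by edgeR), whereas its changes of -0.23 in dXicB6 and 0.33 in dXicCast were not called (adjusted p = 0.241 and 0.0859). Without replicate 3 the dXicB6 change was -0.42 and was called (adjusted p = 0.0142). Tbx3 changed by 0.80 ± 0.22 in TX1072 (adjusted p = 0.00627), a call that was lost without replicate 2 (adjusted p = 0.0511) or replicate 3 (adjusted p = 0.148). In dXicB6 and dXicCast its changes were -0.64 and 0.52 (adjusted p = 0.0784 and 0.138), which with the replicate number as a block became adjusted p = 0.0123 and 0.0195, and in dXicB6 the change was also called without replicate 3 (-0.75, adjusted p = 0.0203). Whether the change from day 2 to day 4 differed between the deletion lines was tested as an interaction, and edgeR called 0 of the 10 members (0.241% of all genes), with 4 at an unadjusted p under 0.05 and 0 called by DESeq2. With the replicate block 1 member was called, and likewise without the filter on low counts.

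Klf4 and Esrrb stayed low. Klf4 changed by 0.11 in TX1072 and -0.19 in dXicCast, neither called, and by -0.89 in dXicB6 (adjusted p = 0.00149 by edgeR, 0.138 without replicate 2). Esrrb changed by -0.34 in TX1072 (adjusted p = 0.132, 0.00458 without replicate 2), -0.77 in dXicB6 (adjusted p = 0.00969, 0.345 without replicate 2) and -0.46 in dXicCast (adjusted p = 0.112, 0.0291 with the replicate block and 0.00818 without replicate 3). Prdm14, at 5.25 CPM or less in all TX1072 libraries from day 2 on, changed by 0.16 in TX1072, -0.40 in dXicB6 and -0.06 in dXicCast, none of them called, although without replicate 3 the dXicB6 change was -0.67 and was called (adjusted p = 0.0417 by edgeR). In bulk libraries a change in the number of cells that carry a gene and a change in its level per cell cannot be told apart, and the single cells described further on bear on this.

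**Figure D3:**
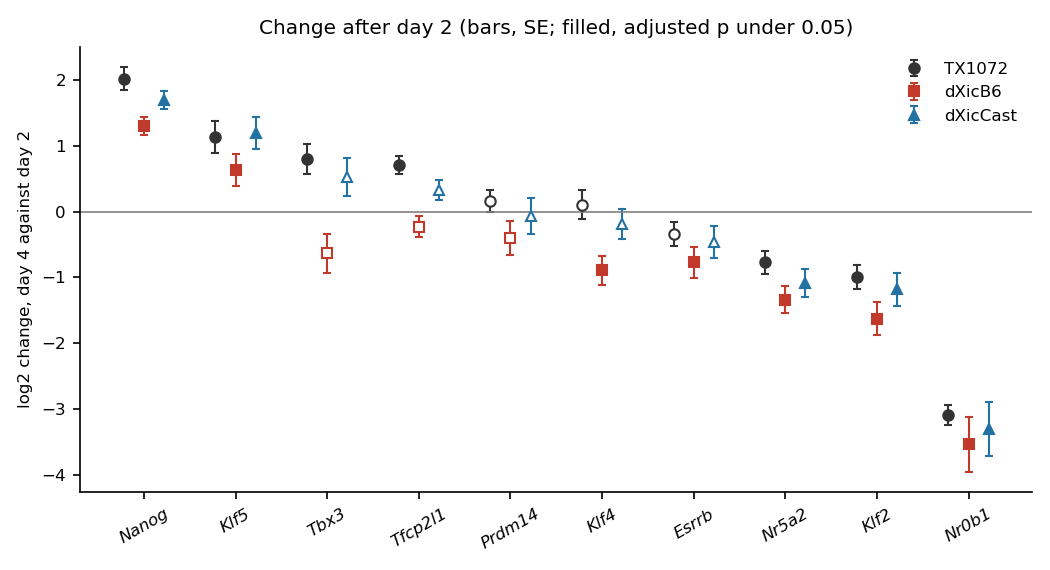
Log2 change from day 2 to day 4 (y axis) of each member (x axis) with its standard error from edgeR, for TX1072, dXicB6 and dXicCast, where filled symbols have an adjusted p under 0.05 and values above 0 are higher at day 4. Nanog and Klf5 lie above 0 in all lines, and Klf2, Nr5a2 and Nr0b1 below 0.

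The deletion lines were compared directly through the interaction of line and day. From day 0 to days 1, 2 and 3, edgeR called 0 of the 10 members as changing differently in dXicCast and dXicB6, against 4.6%, 6.57% and 9.12% of all genes, with 0, 1 and 1 members at an unadjusted p under 0.05. DESeq2 also called 0 on each of these days, with 1 at an unadjusted p under 0.05 on each. With the replicate number as a block the counts were 0, 2 and 2, and without the filter on low counts 1, 3 and 3. From day 0 to day 4 a single member was called, against 15.0% of all genes. This was Tfcp2l1, which went from 3027, 3211 and 3648 CPM to 87.6, 71.4 and 85.2 CPM in dXicB6 and from 2384, 2991 and 2579 CPM to 122.1, 114.7 and 119.4 CPM in dXicCast. Its fall was smaller in dXicCast by 0.86 ± 0.22 log2 units (SE, adjusted p = 0.00928 by edgeR), but this was not called without replicate 1 (adjusted p = 0.0826) or replicate 3 (adjusted p = 0.0514).

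Tbx3 and Klf5 pointed the same way at day 4, by 1.11 ± 0.40 and 0.69 ± 0.35 log2 units, and were not called (adjusted p = 0.0619 and 0.187 by edgeR). With the replicate number as a block, 3 members were called, Tfcp2l1 (adjusted p = 0.0035), Tbx3 (0.00285) and Klf5 (0.00568). For Nanog the difference was 0.06 ± 0.18 (adjusted p = 0.879). Measured from day 1, which leaves out the degraded day 0 libraries, 1 member was called, against 0.749% of all genes. It was Tbx3, at 151.9, 229.5 and 102.5 CPM on day 1 and 13.5, 15.0 and 9.83 CPM on day 4 in dXicB6, and at 106.5, 111.5 and 66.1 CPM and 24.4, 20.5 and 33.7 CPM in dXicCast (1.80 ± 0.41, adjusted p = 0.0315 by edgeR). The call was lost when any 1 of the 3 replicates was left out (adjusted p = 0.272, 0.226 and 0.102), and Tfcp2l1 from day 1 differed by 0.75 (adjusted p = 0.131). All 10 members were lower at day 4 than at day 1 in dXicCast (30.1% of all genes), a contrast that does not use the day 0 libraries. For Nanog and Klf5 this was not a continued fall, since both were lowest at day 2 there.

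Nr0b1 is the only X-linked member, and its allelic counts were read because the deletion lines inactivate opposite X chromosomes. At day 0 the B6 allele held 42.6 ± 2.54% of its allelic counts in TX1072, 47.0 ± 1.21% in dXicB6 and 62.2 ± 0.728% in dXicCast (SD, n = 3). At day 4 the shares were 61.1%, 68.3% and 58.1% in dXicB6 and 62.0%, 67.5% and 69.5% in dXicCast. These groups overlapped (62.5 ± 5.25% and 66.4 ± 3.86%, 2-sided exact permutation p = 0.3, where the smallest p this design allows is 0.1), and the lowest library held 59 allelic counts. In TX1072 the day 4 share was 61.2 ± 7.92%, on at least 38 allelic counts. Since the day 0 shares differed, the change from day 0 between libraries of the same number was also compared, a choice made after seeing the data. It was 12.9, 22.5 and 11 percentage points in dXicB6 and 0.29, 4.54 and 7.78 in dXicCast, groups that did not overlap (2-sided exact permutation p = 0.1, the smallest this design allows). The first of these values rests on a day 0 library with 334 allelic counts of Nr0b1, in which only 5.33% of autosomal counts were assigned to an allele. Over all X-linked genes other than Xist, the B6 share at day 4 was 68.2% in dXicB6 and 38.4% in dXicCast. Among the autosomal members the B6 share of Tfcp2l1 was 71.6 to 74.2% at day 0 and 77.4 to 82.5% at day 4 over the 3 lines, with the day 4 share higher in each line. That of Prdm14 was 23.0 to 25.6% at day 0, was 47.5 ± 2.57% in TX1072, 46.3 ± 6.58% in dXicB6 and 42.5 ± 2.58% in dXicCast at day 1, and was 16.3 to 18.5% at day 4. All 9 libraries of day 1 lay above all 9 of day 0 for Prdm14, on 182 to 587 allelic counts each. Esrrb began near balance at 50.0 to 50.7% and stood at 42.4 to 46.9% at day 4. Over all autosomal genes the mean B6 share was 50.6 to 51.3% in each line and day. Divided by the autosomal share of the library, the day 4 groups of Nr0b1 also overlapped (2-sided exact permutation p = 0.4). A bias of alignment at single genes was not tested.

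Other groups of genes moved at the same time. Of 10 further naive markers, 9 were lower and 1 was higher in TX1072 at day 4 against day 0, beside 29.4% and 30.2% of all genes, and Jam2, Tet2, the dioxygenase that oxidises methylcytosine, and Spp1 changed most (-5.59, -4.75 and -4.38 log2 units). Of 8 core pluripotency genes 3 were higher and 4 lower, with Lin28a, an RNA-binding protein, at 2.66, Sox2 at -2.65 and Pou5f1 at -1.01. Of 10 formative genes 8 were higher and 1 lower, led by Fgf5 at 10.0, Etv4 at 5.71 and Sox3 at 2.26. Their summed level was 669.4 CPM at day 0, 3578 CPM at day 2 and 1221 CPM at day 4, so it was highest on the day when Nanog was lowest. Its largest part at day 2 was Dnmt3b, the de novo DNA methyltransferase, with 1710 CPM.

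Of 12 genes of the LIF and Wnt inputs, 1 was higher and 5 were lower, with Socs3, the feedback inhibitor of Stat3, at -3.17, Gbx2 at -2.76 and Lifr, a subunit of the LIF receptor, at -2.46. Of 5 mesendoderm genes tested 4 were higher and none lower, led by Foxa2 at 6.61, Eomes at 4.93 and Mixl1 at 4.26. Their summed level in TX1072 was 17.9 CPM at day 0, 8.85 CPM at day 2 and 241.5 CPM at day 4, and at day 4 it was 105.4 CPM in dXicB6 and 116.0 CPM in dXicCast, where the replicates had 76.7, 62.2 and 209.1 CPM and the mean without replicate 3 was 69.5 CPM. Of 8 primitive endoderm genes 8 were higher, with Foxa2, which stands in both lists, Gata6 at 3.15 and Dab2 at 2.93. Of 5 neural genes tested 4 were higher and 1 lower, with Zic1 at 3.31, Pax6 at 2.32 and Nes at 1.70.

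Genes known as markers of other cell types also differed between day 0 and day 4 in TX1072, when 30.2% of all genes were higher and 29.4% lower. Of 8 smooth muscle and fibroblast genes 5 were higher and 2 lower at day 4 against day 0 in TX1072, led by Tagln, Acta2 and Col3a1, and their summed level was 82.7 CPM at day 0, 87.2 CPM at day 2 and 676.2 CPM at day 4. Of 5 trophoblast genes tested 2 were higher, Krt8 and Krt7, and 2 lower, among them Cdx2 at -2.32, and their sum was 80.6, 55.8 and 996.6 CPM on these days. The most abundant gene of this list was Tfap2c at day 0, with 63.7 CPM, and Krt8 at day 4, with 896.8 CPM. All 6 genes of the 2-cell state tested were higher, led by Zscan4c, Zscan4f and Tcstv3, and their sum was 0.0685 CPM at day 0, 1.46 CPM at day 2, 10.8 CPM at day 3 and 3.00 CPM at day 4. On day 4 a UMI of Tagln was found in 91.2% of single cells and of Krt8 in 84.6%, after thinning as described further on. Acta2, Krt7 and Tfap2c were found in 31.6%, 24.3% and 14.7% of these cells, and Col3a1 and Cdx2 in 0.368% each. Zscan4c, Zscan4f and Tcstv3 were found in 0%. Whether the genes of these lists mark separate cells of other types was not tested. The part of any such cells in the later bulk levels of the members was not tested either.

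Across the 15 group means of the 3 lines, with log2 CPM centred per line, the genes whose course was most like the mean course of the members were Pramef17 (r = 0.998), Tbc1d13 (0.997), Mapt (0.9962), Slc1a1 (0.9959) and Calcoco2 (0.9959). Pramef17 had 8.73 ± 1.05 CPM at day 0 and 0.032 ± 0.0021 CPM at day 4 in TX1072. Among the members themselves the likeness to the mean course ranged from 0.9986 for Klf4 to 0.8648 for Nanog and 0.7846 for Nr0b1. Over the 15 TX1072 libraries, the genes most like Nanog were Slc44a1 (r = 0.9935), Il6ra (0.9868) and Elovl5 (0.9786), and those most like Esrrb were Fam189a2 (0.9906), Pkd1l2 (0.9899) and Ttl (0.9877). These correlations share the sampled days and, in part, the libraries, and are descriptions.

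The single cells showed how the bulk levels were spread over cells. Each cell was thinned to 40000 UMIs, which left out none of the retained cells, whose median was 124651 to 171158 UMIs per day. There is a single culture per day, so the intervals given cover counting error only and no test between days was made. At least 5 of the 10 members were found in 99.6%, 90.2%, 17.9%, 12.5% and 6.99% of cells on days 0 to 4 (for day 4, 19 of 272 cells, exact binomial 95% interval 4.26 to 10.7%). Without thinning the share at day 4 was 18.4%. At least 8 members were detected in 94.9%, 29.8%, 2.93%, 2.33% and 0.735% of cells on these days. The median cell had 9 members detected at day 0, 7 at day 1 and 2 on each later day.

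The summed UMIs of the members per thinned cell had medians of 159, 56, 7, 8 and 9 on days 0 to 4. No day 0 cell had fewer than 54. At or above that sum were 167 cells on day 1, 18 on day 2, 12 on day 3 and 8 on day 4. That limit is set by a single day 0 cell, and at or above the 5th percentile of day 0 cells, 106 UMIs, were 15, 2, 2 and 1 cells on days 1 to 4. On day 4, 35 cells had 4 members detected, just below the threshold of 5, and 9 cells had exactly 5.

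The share of cells with a UMI depends on a gene's level as well as on its loss. Prdm14 was detected in 73.3% of thinned cells at day 0 and in 10.5% at day 1, whereas Esrrb was detected in 100% and 95.1% and Klf2 in 99.3% and 94.8%. Tfcp2l1, which fell early in bulk from a high level, was still detected in 90.8% of cells at day 1. Nr0b1 was detected in 75.5% of cells at day 0 and 95.1% at day 1, and 78.8% of day 1 cells reached the day 0 median of 4 UMIs, against 50.5% of day 0 cells. Nanog was detected in 98.9%, 59.7%, 24.0%, 54.1% and 69.1% of cells on days 0 to 4, and Klf5 in 97.8%, 82.8%, 36.1%, 41.6% and 58.8%. Esrrb, by contrast, went from 31.7% at day 2 to 23.0% and 21.3%, and Klf2 from 60.1% to 41.6% and 27.6%.

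**Figure D4:**
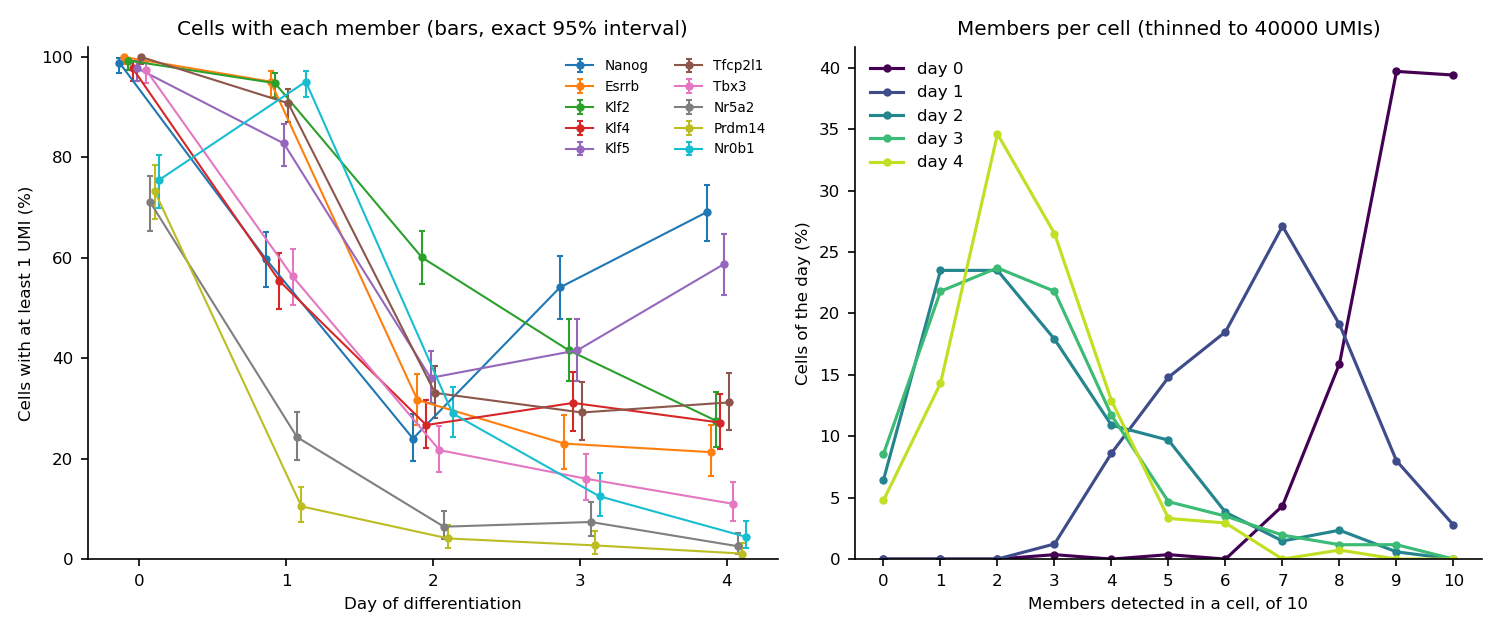
Single-cell values of the members by day after thinning each cell to 40000 UMIs: left, the share of cells with at least 1 UMI of each member (exact binomial 95% intervals) against day, and right, the share of each day's cells by the number of members detected. Nanog and Klf5 are detected in more cells at day 4 than at day 2, and few cells keep at least 5 members from day 2 on.

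RNA outside cells may add to these shares, so capture sites without a cell were read for comparison. In 37 capture sites of days 2 to 4 listed as empty, with a median of 10809 UMIs, a UMI was found of Nanog in 29.7%, Klf5 in 27.0%, Klf2 in 24.3%, Esrrb in 21.6%, Klf4 and Tfcp2l1 in 16.2%, Tbx3 in 10.8%, Nr0b1 in 8.11%, Nr5a2 in 5.41% and Prdm14 in 0% of sites (which allows up to 9.49%). Of these sites 4 were of day 2, 14 of day 3 and 19 of day 4, so the pooled shares mostly describe the later days, and the sites of day 2 are too few for a comparison with cells. Within day 4, 47.4% of empty sites held a Nanog UMI (exact binomial 95% interval 24.4 to 71.1%), which takes in the 69.1% of cells. The level of Nanog per total UMIs on that day was 94.4 CPM in the empty sites, on 25 UMIs, and 90.5 CPM in the cells. The day 4 shares of Klf5 and Tfcp2l1 in cells, 58.8% and 31.2%, were above the upper limits of the empty sites of that day, 51.2% and 26.0%, but the sites were shallower, with a median of 13124 UMIs against 40000 in the thinned cells. Per total UMIs these sites held 30.2 CPM of Klf5 on 8 UMIs and 15.1 CPM of Tfcp2l1 on 4 UMIs, all 4 of them in 1 site, against 64.0 and 41.5 CPM in the cells. The day 4 shares of the other 7 members in cells lay within the intervals of that day's empty sites. These intervals are wide and the sites shallower, so such an overlap does not show that cells and sites are alike. Per total UMIs the sites held 18.9 CPM of Klf2 and of Esrrb, on 5 UMIs each, and 11.3 CPM of Klf4 on 3 UMIs. The cells held 40.5, 33.4 and 26.3 CPM of Klf2, Esrrb and Klf4. Tbx3, Nr0b1, Nr5a2 and Prdm14 were also lower in the sites, on at most 1 UMI each. A UMI of these 7 members or of Nanog in a day 4 cell is not read as expression by itself. The part of free RNA in the shares of cells was not settled by this comparison.

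The spread of the UMIs over cells differed between members. At day 4 the 10% of cells with the most UMIs of a gene held 37.6% of all Nanog UMIs and 46.3% of all Klf5 UMIs, but 83.3% of all Esrrb UMIs and 83.9% of all Klf2 UMIs. Nanog had been as concentrated at day 2, when these 10% of cells held 78.9%. The Nanog UMIs of day 4 were spread over more cells. Only 7 of 272 cells at day 4 (2.57%) reached the median Nanog count of day 0 cells, and for Tfcp2l1 the number was 0 (exact binomial upper limit 1.35%).

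The cells that kept at least 5 members were chosen by these counts, so what follows describes them without a test. They did not have more RNA captured than the rest, with median totals of 120098 against 126748 UMIs on day 2, 116557 against 131673 on day 3 and 147466 against 173249 on day 4, and they came from 10, 10 and 7 of the 10 capture columns. Their further naive markers had a median sum of 44, 51.5 and 31 UMIs per thinned cell on days 2 to 4, against 19, 17 and 9 in the other cells. Their formative genes had 58, 31 and 32 UMIs, against 113, 86 and 48. The summed core pluripotency genes had 65, 58 and 50 UMIs against 57, 52 and 52, but their members went both ways at day 4. Sox2 was detected in 73.7% of these cells and 34.8% of the rest, and Dppa4 had a mean of 4.11 UMIs against 1.79, while Tdgf1 had 19.1 against 28.8 and Lin28a 0.579 against 1.94. At day 4 Tfcp2l1 was detected in 94.7% of these 19 cells and 26.5% of the rest, Esrrb in 84.2% and 16.6%, Klf2 in 78.9% and 23.7%, and Nanog in 100% and 66.8%. Among genes that did not define them, the adhesion molecule Pecam1 was detected in 47.4% and 0.791%, and Dppa3, the maternal factor also called Stella, in 57.9% and 15.4%. Of the 10 further naive markers only Nodal, a ligand of the TGF-beta family, was detected in a smaller share of these cells than of the rest, in 73.7% and 85.8%.

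At day 4 the 188 cells with a Nanog UMI had T, the mesoderm factor Brachyury, in 45.7%, against 27.4% of the 84 cells without, Eomes in 51.6% and 32.1%, Fgf5 in 87.8% and 57.1%, Otx2 in 59.6% and 34.5% and Sox2 in 45.7% and 19%. Klf2 was detected in 23.9% and 35.7% of these cells. These are shares within a single culture, cells are not replicates, and the part of free RNA in the split was not tested.

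Spliced and unspliced UMIs, the latter read from introns, were counted in separate tables for the same cells. At day 1, 8 of the 10 members had an unspliced level relative to day 0 below the spliced one, with intervals (exact Poisson, counting error of that day only) that did not overlap, and 1 had it above. Of all 10851 genes with at least 10 UMIs of each kind at day 0, 39.0% had it below and 29.4% above by the same rule. The day 1 libraries were sequenced in both High Output and Rapid Run mode and those of the other days in High Output mode only, and the part of this in the day 1 values was not tested. Klf2 stood at 55.1% of day 0 in spliced and 17.9% in unspliced UMIs, Esrrb at 65.5% and 46.9%, Klf5 at 47.0% and 26.0% and Nr5a2 at 25.2% and 12.2%. Nanog stood at 17.3% in both. Prdm14, the earliest to go, was the only member with the opposite order, at 7.52% and 11.3%. On day 2 Nanog stood at 6.87% in spliced and 12% in unspliced UMIs, and Esrrb at 11.5% and 16.4%, while Nr0b1 went the other way with 28.1% and 2.73%. These were the members whose intervals did not overlap on that day, when 34.3% of all genes had the unspliced level below the spliced one and 27.4% above. The order of Nr0b1 was reversed on day 3, with 12.8% in spliced and 26.5% in unspliced UMIs and intervals that did not overlap.

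Nr0b1 was the extreme case at day 1. Its spliced UMIs rose from 5808 to 14420 over the retained cells, to 238% of day 0 relative to all spliced UMIs, while its unspliced UMIs went from 67 to 24, or 26.9% of day 0 (interval 17.3 to 40.1%). The mature and the intron-bearing RNA thus moved in opposite directions on the day when the bulk level peaked. The unspliced counts are small and rest on a single culture per day.

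**Figure D5:**
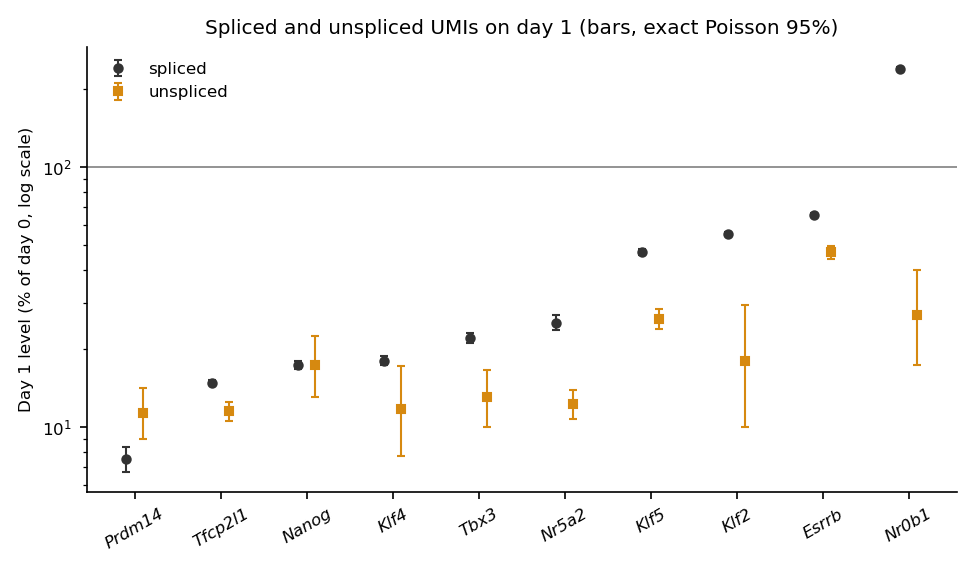
Level at day 1 as a percentage of day 0 for spliced and unspliced UMIs of each member (log axis), summed over the retained cells, with exact Poisson 95% intervals for the day 1 counts. Unspliced levels lie below spliced ones for 8 members, most for Nr0b1, while Nanog is equal in both and Prdm14 lies the other way.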

How the data were processed

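The authors deposited raw counts, namely reads per gene for 45 bulk libraries, in total and per allele, and UMI counts per cell in total and as spliced and unspliced UMIs. Reads were aligned to mm10, with STAR 2.5.2b and featureCounts named in the submitters' processing notes and SNPsplit in the study's methods. All per-sample columns were mapped to samples and 0 were left unused. Bulk counts were tested with edgeR 4.0.16 in R 4.3.3 (TMM factors 0.929 to 1.06 in TX1072 and 0.847 to 1.08 in the deletion lines, filterByExpr, quasi-likelihood F test, Benjamini-Hochberg over 18871 or 19885 genes, threshold 0.05), with 15 libraries in the TX1072 fit and 30 in that of the deletion lines. Standard errors were derived from the log2 change and its F statistic. DESeq2 1.42.0 was an alternative. CPM values used TMM-scaled library sizes. On simulated counts for day 4 against day 0, 84% of 2-fold and 99% of 4-fold changes were recovered in TX1072 (16896 genes) and 88% and 99% in dXicB6 (17492 genes), with 4.69% and 4.59% false calls among those made. Retained cells and empty sites were taken from the study's lists of cells, which removed empty, multiple and low-quality captures, doublets being judged by eye on images, and cells with a single X chromosome. In each day the same 40 row barcodes recur in every capture column, and cells were told apart by column. Shares have exact Clopper-Pearson and sums exact Poisson intervals, which cover counting error only.

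Replicate numbers were taken as pairs in the replicate block because the study's reporting summary states that each replicate was differentiated on a different day. Over 30 same-numbered pairs per line, the deviations from the group means had a median correlation of 0.168, 0.299 and 0.219 in TX1072, dXicB6 and dXicCast, against -0.0901, -0.16 and -0.171 for other numbers. The replicates of a group are thus separate differentiations of the same line, and the closest pair of replicates differed by a chi-square of 7.98 per degree of freedom, above counting noise.

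The members and lists were chosen with earlier results of these data known. The genes named are the 10 members, at most 3 genes of each other list with the largest TX1072 change at day 4, the 5 other genes most like the mean member course, and 3 each for Nanog and Esrrb. Genes of the lists named in single cells (Pecam1, Dppa3, Nodal, Sox2, Dppa4, Tdgf1, Lin28a, T, Eomes, Fgf5 and Otx2) and Dnmt3b and Tfap2c were chosen after their values were seen, as were the threshold of 5 members per cell, the empty-site comparison, the promoter letters and the day 4 against day 2 contrast in the deletion lines. Alternatives were other size factors, autosomal scaling, no filter, a replicate block, leaving out replicates or capture columns, other pseudocounts, and unthinned cells.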

Additional observations from a re-analysis of the deposited data

Results flagged for a closer look

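In 3 of 40 values tested over the 10 capture columns of a day, a single column stood apart by Dixon's criterion (critical value 0.466), and chance alone gives about 1 in 20. The 40 values did not take in all members on all days. At day 2 the 31 cells of column 4 had 72.8 CPM of Nanog, and the other columns 5.57 to 38.3 CPM. At day 3 the 26 cells of column 3 had 106.3 CPM of Tfcp2l1, and the others 25.9 to 67.7 CPM. At day 4 the 25 cells of column 4 had 20.4 CPM of Nr0b1, and the others 0 to 9.12 CPM. Outside the 40 values, at day 1, column 2 had 143.2 CPM of Klf2 and the others 258.2 to 343.7 CPM. Column 4 of day 1 had 42.0 CPM of Nr5a2 and the others 9.61 to 25.7 CPM. Both also stood apart by this criterion.

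Without a replicate block, differences between the deletion lines were called for 2 genes. The fall of Tfcp2l1 from day 0 to day 4 was smaller in dXicCast than in dXicB6 by 0.86 log2 units, and that of Tbx3 from day 1 to day 4 was smaller by 1.80 log2 units. Both were found by the interaction test in edgeR (adjusted p = 0.00928 and 0.0315), and the first was lost without replicate 1 or 3 and the second when any 1 of the 3 replicates was left out. With the replicate number as a block, Tfcp2l1, Tbx3 and Klf5 were called from day 0 to day 4 (adjusted p = 0.0035, 0.00285 and 0.00568 by edgeR). Each line is a single clone, so line and clone cannot be told apart.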

How the results depend on the processing

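The counts of members lower at day 4 than at day 0 were 10 in each line under every alternative run, a required change of at least 2-fold included. The number of members whose change from day 0 to day 4 differed between the deletion lines was 1, and moved to 2 with DESeq2, to 3 without the filter on low counts, to 3 with the replicate block, to 0 when at least 2-fold was required, and to between 0 and 1 when a replicate was left out (0 without replicate 1 or 3). The replicate block also added 4 calls of single members given beside their values and, beside the interaction counts given there, changed no other call. Without the filter, 6 further calls of single members were gained. The median half-loss day of 0.468 in TX1072 became 0.934 when 25% of the day 0 level was used, by construction, and the mean day of Klf2 then came after that of Esrrb in all 3 lines. The share of day 4 cells with at least 5 members was 6.99% thinned and 18.4% without thinning, was 4.41% when at least 2 UMIs were required and 7.62% over all capture sites of that depth, and ranged from 5.74 to 7.79% without each capture column. When a replicate was left out, small changes from day 2 to day 4 that were not called with all replicates changed sign, and the cause was not tested. In TX1072 they ranged from -0.715 to 0.0413 log2 units for Esrrb, from -0.068 to 0.343 for Klf4 and from -0.00609 to 0.478 for Prdm14, and in dXicCast from -0.129 to 0.0512 for Prdm14. Of 1181 alternative values, 1108 were labelled unchanged, by a rule that differed with the kind of result. Tests had to keep their direction and side of the threshold, and counts of members had to stay equal or close. Half-loss days had to stay within the replicate SD of the main value, and shares of cells within its interval. Members at a few CPM at day 4, such as Prdm14, Nr5a2 and Nr0b1, rest on the fewest counts. Shares of cells within or below those of empty sites cannot by themselves be read as expression.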

Other observations

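On day 4 Nr0b1 was listed at 0 in both the spliced and the unspliced table, although the table of all UMIs held 203 of its UMIs over the retained cells. Of 11329 genes with at least 100 UMIs on that day, 117 were at 0 in both tables, and 12 of them on that day only. The day 4 spliced and unspliced values of Nr0b1 were therefore not used.

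The share of autosomal counts assigned to an allele was 5.33% in dXicB6 day 0 replicate 1, 9.92% in dXicB6 day 2 replicate 2, 21% in dXicB6 day 2 replicate 1 and 23.9% in dXicCast day 3 replicate 3. None of the day 4 libraries behind the allelic comparison of Nr0b1 was among these, but its change from day 0 in dXicB6 replicate 1 rests on the first of them.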
